A study of Rattus norvegicus with 2 samples.

Results

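Circular RNAs (circRNAs) made from genes of vesicle and membrane trafficking were compared between a Sham rat lung and an LPS-exposed rat lung. A circRNA was taken as a member when a host gene name given for it matched a fixed set of family names (Rab, Rabgap, Tbc1d, Dennd, Vps, Snx, Exoc, Sec, Trappc, Cog, Stx, Arf, Arl, Asap, the AP adaptor subunits, Clta, Cltc, Picalm, Golg, Copa, Copb, Atg, Vti1 and Snap). This gave 171 of the 4734 circRNAs in the table, from 95 of 2321 host genes. The matching used gene names alone, while the set of names was put together with earlier results of these data known.

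The study used SD (Sprague-Dawley) rats, 12 in all, of which the Sham group received PBS and the LPS group received 2 mg/kg lipopolysaccharide, a component of the outer membrane of Gram-negative bacteria that provokes acute lung injury, sprayed into the trachea. Lung tissue was taken 24 h later, and 1 circRNA library per group was deposited. Whether a library holds RNA of 1 rat or of several pooled rats is not given in the sources used here, so neither library has a replicate check and no p-value is given. Levels are given in CPM, the reads across the back-splice junction of a circRNA scaled to one fixed total per library. The depth was 38112 junction reads in Sham and 52505 in LPS, so 1 read was worth 26.2 CPM and 19.0 CPM. A circRNA with 0 or 1 read was listed at the fill-in value of 0.001, which allows up to 124 CPM in Sham and 90.4 CPM in LPS (95% Poisson limit for 1 read). A fold over this limit uses the measured level in the other library and leaves out the counting error of its reads. Intervals below are 95% Wilson intervals for a level and exact intervals for a ratio, and they cover counting error only, since PCR reads carry no molecular identifiers.

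Membrane trafficking moves proteins and lipids between the organelles of a cell. Coat proteins such as clathrin, its AP adaptors and the COPI and COPII complexes bud a vesicle from a donor membrane, small GTPases of the Arf, Arl and Rab families mark each membrane and recruit its machinery, tethers hold the vesicle at its target, and SNARE proteins fuse the pair. GTPases are switched on by exchange factors, such as the DENN domain proteins, and off by GTPase-activating proteins, such as the TBC domain proteins. In the lung, these steps serve surfactant secretion, uptake by alveolar macrophages and the turnover of endothelial receptors. A circRNA forms when a downstream splice site of a transcript is joined back to an upstream one, so its level is that of the circle and not of the mRNA or protein of the host.

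The circRNAs of these name families took a larger share of the junction reads in LPS than in Sham. They held 1282 reads in Sham, or 3.36% of the library (3.19 to 3.55), and 2661 reads in LPS, or 5.07% (4.88 to 5.26), a ratio of 1.51 (1.41 to 1.61). A single circRNA of Arl15 gave 33.5% of all member reads, and without it the share was 2.39% (2.24 to 2.54) in Sham and 3.26% (3.11 to 3.42) in LPS, a ratio of 1.37. On total junction reads, the share therefore lay higher in LPS with and without the most abundant member. The intervals of the libraries did not overlap in either case. The ratio of all members depended on the scale, with a log2 value of 0.59 on total junction reads, of 0.15 when the 323 shared circRNAs with at least 50 reads were set to a median ratio of 1, and of 1.05 when all 1757 shared circRNAs were. Without the Arl15 circle, the log2 value was 0.45 on total junction reads. The scale of the 323 abundant circRNAs lowers every log2 value by 0.44, so nearly no difference was left on it. In tissue, fewer cells of a type and less RNA per cell cannot be told apart. Circles of 3 of 10 neutrophil marker genes held 0 reads in Sham and 30 in LPS, 25 of them from Csf3r. Those of 3 of 7 mesenchyme markers held 401 and 210 reads. Eln (331 and 206) and Col3a1 (70 and 2) were lower, and Pdgfra (0 and 2) went the other way. Those of 3 of 8 endothelium markers held 76 and 62. Vwf (58 and 56) was within 2-fold, Tek (18 and 2) was lower and Epas1 (0 and 4) went the other way. Macrophage markers (3 of 8) held 2 and 12 reads. Lymphocyte markers (2 of 7) held 52 and 94, of which Ikzf1, within 2-fold, gave 52 and 89. These are raw reads, and the LPS library was the deeper. Marker circles thus differed between the libraries in both directions, and their part in these results was not tested. Of the defining lung epithelium genes, 3 of 13 had any circRNA, with 7 reads in Sham (5 of Sftpc and 2 of Sftpd, which encode surfactant proteins) and 3 in LPS (all of Abca3, the lipid transporter of surfactant-producing cells).

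The reads of the members were concentrated in few circles. The 5 members with the most reads held 52.4% of the 3943 member reads and the first 20 held 72.9%, while the median member had 5 reads over both libraries, as had the median circRNA of the whole table. Of the 171 members, 66 (38.6%, against 37.1% of all circRNAs) had reads in both libraries, 44 (25.7%, against 32.4%) in Sham only and 61 (35.7%, against 30.5%) in LPS only. A circRNA was counted as higher or lower at a fold change of at least 2, with 0.5 reads added. By this rule 73 members (42.7%) were higher in LPS, where 35.7% of all circRNAs were, and 62 (36.3%) were lower, where 43.3% of all circRNAs were. All 105 members listed in 1 library pass this rule by construction, also the 30 of them with 2 reads. Among the 66 members with reads in both libraries, 12 were higher (18.2%, background 13.9%), 18 were lower (27.3%, background 29.5%) and 36 were neither, and the median log2 ratio was -0.40 with an interquartile range of -1.10 to 0.86, beside -0.46 (-1.21 to 0.54) for all 1757 shared circRNAs. At a minimum of 10 reads in total, 51 members were left, of which 18 were higher (35.3%, background 29.1%) and 12 were lower (23.5%, background 29.6%).

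Summed over its circles, a host gene was at least 2-fold higher in LPS for 31 of the 95 members (32.6%, background 30.6%) and lower for 29 (30.5%, background 37.4%), and 35 were neither. With the 323 abundant shared circRNAs set to a median ratio of 1, which lowers every log2 value by 0.44, the split was 27 higher (background 28%) and 38 lower (background 44.5%), and with all 1757 shared circRNAs set to it, which raises every log2 value by 0.46, it was 37 higher (background 36%) and 27 lower (background 31.6%). Of the 35 hosts with at least 20 reads, 8 were higher (22.9%, background 24.2%) and 5 were lower (14.3%, background 19.8%). The 8 higher hosts were Trappc6b, Asap3, Rab6a, Tbc1d8, Vps13c, Sec63, Stx8 and Rab11a, and the 5 lower hosts were Asap1, Tbc1d5, Trappc8, Rab21 and Snx27. These calls moved with the scale. With the abundant shared circRNAs at a median ratio of 1, 6 of the 35 hosts were higher (17.1%, background 18.3%) and 13 lower (37.1%, background 31.4%), Stx8 (log2 of 0.85) and Rab11a (0.61) no longer passed, and Dennd1b (-1.26) and Ap3b1 (-1.20) were among the 8 that came to be lower. With all shared circRNAs at a median ratio of 1, 13 were higher (37.1%, background 36%) and 3 lower (8.57%, background 10.7%), Snx27 (-0.58) and Rab21 (-0.82) no longer passed, and Arl15 (1.32), Clta (1.46), Arl1 (1.38), Asap2 (1.46) and Snx13 (1.42) did. Trappc6b, Asap3, Rab6a, Tbc1d8, Vps13c and Sec63 were higher, and Asap1, Tbc1d5 and Trappc8 lower, on all 3 scales. The plot of host levels shows these sums with their counting error.

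**Figure D1:**
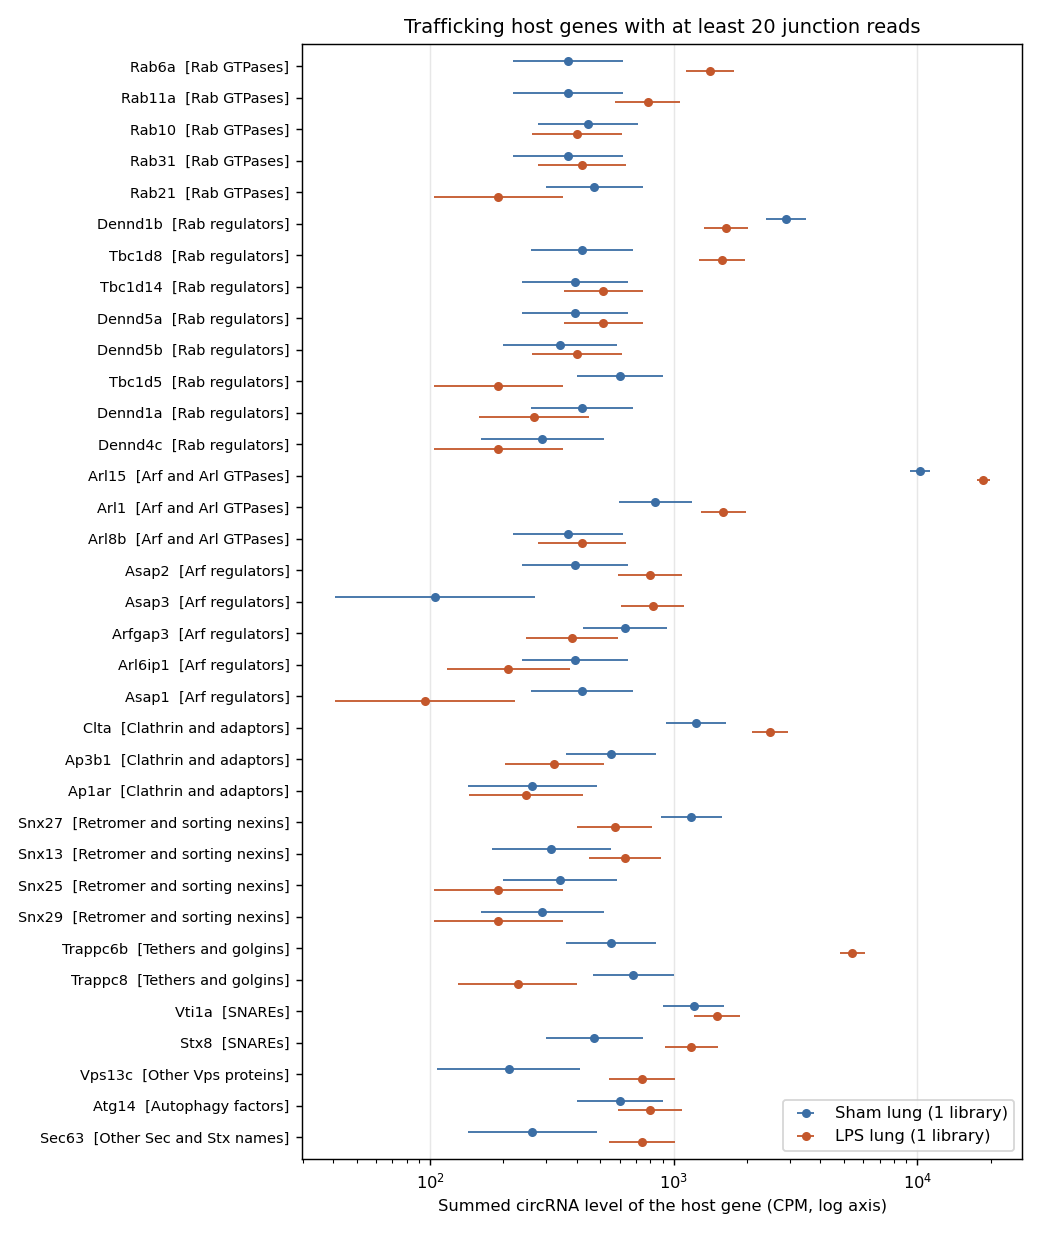
Summed circRNA level (CPM, log axis) of the 35 trafficking host genes with at least 20 junction reads, in the 1 Sham library and the 1 LPS library, with the role of each host in brackets and bars for the 95% Wilson interval. Arl15 lies highest in both libraries, at 10259 CPM in Sham and 18627 CPM in LPS, and the pair of points lies farthest apart for Trappc6b, at 551 and 5409 CPM.

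Rab GTPases, which give endosomal and secretory membranes their identity, had 13 circRNAs from 7 hosts, with 87 reads in Sham and 171 in LPS and a summed ratio of 1.43 (1.10 to 1.87). Rab6a, which directs transport at the Golgi, accounted for most of the gain. Its circle on chromosome 1 (165646261 to 165654319, build rn6) had 14 reads or 367 CPM (219 to 617) in Sham against 74 reads or 1409 CPM (1123 to 1769) in LPS, 3.84-fold higher (2.15 to 7.36). Without Rab6a, the other 6 Rab hosts held 73 and 97 reads, a ratio of 0.96 (0.70 to 1.32), so their sum did not differ beyond counting error. Ratios of classes and families, here and below, are on total junction reads. The scale of abundant shared circRNAs lowers each log2 value by 0.44, and that of all shared circRNAs raises it by 0.46. Statements on counting error therefore hold for total junction reads only.

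Rab11a, the GTPase of recycling endosomes, had 367 CPM (219 to 617) in Sham against 781 CPM (576 to 1059) in LPS, a ratio of 2.13 (1.14 to 4.22) over its pair of circles. Rab21, an early endosome GTPase involved in integrin uptake, had the opposite order. Its main circle on chromosome 7 (58270832 to 58274665) had 18 reads or 472 CPM in Sham and 4 reads or 76.2 CPM in LPS, 6.20-fold lower (2.04 to 25.2), and 2 other Rab21 circles had 3 reads each in LPS only. The circle of Rab1a, which acts between endoplasmic reticulum and Golgi, was listed in Sham only, with 10 reads on chromosome 14 (104489398 to 104493003). Its Sham level was 2.90-fold over the LPS limit. Rab31 (14 and 22 reads) and the 4 circles of Rab10 (17 and 21 reads in sum) gave sums within 2-fold, and the late endosome gene Rab7a had 3 reads in LPS only.

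Rab regulators formed the class with the most circles, 42 from 19 hosts, and its sum differed little between the libraries, with 6953 CPM in Sham and 6076 CPM in LPS, a ratio of 0.87 (0.74 to 1.03). Without Dennd1b the ratio was 1.09 (0.89 to 1.35), so the direction of the sum rested on that host. On total junction reads neither value differed beyond counting error. The log2 value of the whole class, -0.19, is lowered by 0.44 on the scale of abundant shared circRNAs and then lies beyond counting error. Of its hosts, 5 were higher, 5 lower and 9 neither. Counts of this size, in this class and in those that follow, are too small to set against the 30.6% of all host genes that were higher and the 37.4% that were lower. The DENN family of Rab exchange factors (7 hosts, 20 circles) held 4382 CPM in Sham and 3219 CPM in LPS, 1.36-fold lower (1.09 to 1.70), and without Dennd1b the other 6 hosts held 1496 and 1581 CPM, a ratio of 1.06 (0.75 to 1.51). The main Dennd1b circle on chromosome 13 (56096834 to 56098861) had 106 reads or 2781 CPM in Sham and 70 reads or 1333 CPM in LPS, 2.09-fold lower (1.53 to 2.86; log2 of -0.60 with the shared circRNAs set to a median ratio of 1), and its rank among all circRNAs went from 37 in Sham to 129 in LPS. A second Dennd1b circle (56114438 to 56129496) had the opposite pattern, with 14 reads in LPS and the fill-in in Sham, 2.14-fold over the Sham limit. Dennd5b had 5 circles on chromosome 4, with 13 reads in Sham and 21 in LPS in sum, a ratio of 1.17 (0.56 to 2.55). In Dennd5b only the circle from 183483025 to 183487172 had reads in both libraries (11 and 12), and the other 4 had 2 to 5 reads in 1 library each.

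The TBC family (9 hosts, 19 circles) held 85 reads in Sham and 130 in LPS, a ratio of 1.11 (0.84 to 1.48), with 2 hosts higher, 4 lower and 3 neither. Tbc1d8, a predicted Rab GTPase-activating protein, was the highest of them in LPS. It gave 16 of the family's reads in Sham and 83 in LPS. The other TBC hosts together held fewer reads in LPS than in Sham, so the family ratio rested on Tbc1d8. Its main circle on chromosome 9 (46104677 to 46105695) had 16 reads or 420 CPM in Sham and 76 reads in LPS, 3.45-fold higher (1.99 to 6.34), and a second circle added 7 reads in LPS only. Tbc1d5, which acts on Rab7 at the retromer, differed the other way. Its 4 circles on chromosome 9 summed to 603 CPM (402 to 905) in Sham against 190 CPM (103 to 351) in LPS, 3.17-fold lower (1.45 to 7.46), with 3 of the 4 lower and the fourth at 6 reads in each library. The Tbc1d22b circle on chromosome 20 (8247936 to 8251825) had 13 reads in Sham only, 3.78-fold over the LPS limit. It was the member with the most reads among those listed in Sham only. Rab3ip, an exchange factor for Rab8, had 8 reads in Sham only (chromosome 7, 59955208 to 59957230). A circle of Rabgap1l on chromosome 13 (78089759 to 78094857) had 15 reads in LPS only, 2.30-fold over the Sham limit, in a row that names 9 genes.

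Arf and Arl GTPases held the most reads of any class. Arl15, a small GTPase whose locus is associated with adiponectin levels, gave the second most abundant circRNA of the whole table. The circle on chromosome 2 (45801786 to 45813991, 12205 bases apart) had 373 reads or 9787 CPM (8847 to 10826) in Sham against 948 reads or 18055 CPM (16951 to 19230) in LPS, a ratio of 1.84 (1.63 to 2.09). The difference was larger than the counting error and did not reach 2-fold, with a log2 value of 0.88. The circle ranked 6th in Sham and 2nd in LPS. The 3 other Arl15 circles, of which 2 end at the same position and 1 starts at the same position as the abundant one, had 3 to 24 reads per library, and the abundant circle made up 96.5% of the reads of the host.

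Arl1, which recruits golgins to the trans-Golgi, had a pair of circles on chromosome 7 that share their end at 29288495. The longer circle (from 29284390) had 4 reads in Sham and 42 in LPS, 7.62-fold higher (2.77 to 29.3), and the shorter circle (from 29286904) had 28 and 42 reads, a ratio of 1.09. The Arl1 sum was 840 CPM (595 to 1185) in Sham against 1600 CPM (1293 to 1980) in LPS, a ratio of 1.91 (1.25 to 2.96), below 2-fold. Arl8b, the lysosomal GTPase, had 14 and 22 reads over its pair of circles, Arl13b, a GTPase of cilia, had 3 and 5 reads, and Arl3 and Arf4 had 2 reads each in LPS only. Without Arl15, this class had a ratio of 1.70 (1.21 to 2.43), from 1286 CPM in Sham to 2190 CPM in LPS. Of the 49 and 115 reads behind it, the longer Arl1 circle gave 4 and 42. Most of the remaining difference thus lay in that 1 circle.

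Arf regulators had 15 circles from 6 hosts and a summed ratio of 1.35 (1.01 to 1.82), which was 1.18 (0.85 to 1.66) and within counting error without Asap2. The 3 ASAP proteins, which switch off Arf GTPases and act at focal adhesions and podosomes, moved in different directions. The Asap3 circle on chromosome 5 (154577634 to 154577932, 298 bases) had 4 reads or 105 CPM in Sham and 43 reads or 819 CPM in LPS, 7.80-fold higher (2.84 to 29.9). Asap2 had 5 circles on chromosome 6, and that from 43278166 to 43284828 had 3 reads in Sham and 38 in LPS, a ratio of 9.19 (2.92 to 46.6), whereas 3 others were lower in LPS with 2 to 5 Sham reads. The Asap2 sum was 394 CPM in Sham and 800 CPM in LPS, a ratio of 2.03 (1.10 to 3.95), which lay just short of the call once 0.5 reads were added (log2 of 0.99). Asap1 was lower, with 420 CPM (258 to 682) in Sham against 95.2 CPM (40.7 to 223) in LPS, 4.41-fold lower (1.54 to 15.4) over 4 circles. Arfgef2, an exchange factor that activates Arf1 at the trans-Golgi, had 14 and 3 reads on its pair of circles, all in LPS. Arfgap3, a COPI-linked GTPase-activating protein, had 24 and 20 reads in sum. Arl6ip1, which shapes the endoplasmic reticulum and was counted in this class by its name alone, had 15 and 11 reads, 1.88-fold lower (0.806 to 4.52), within counting error.

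**Figure D2:**
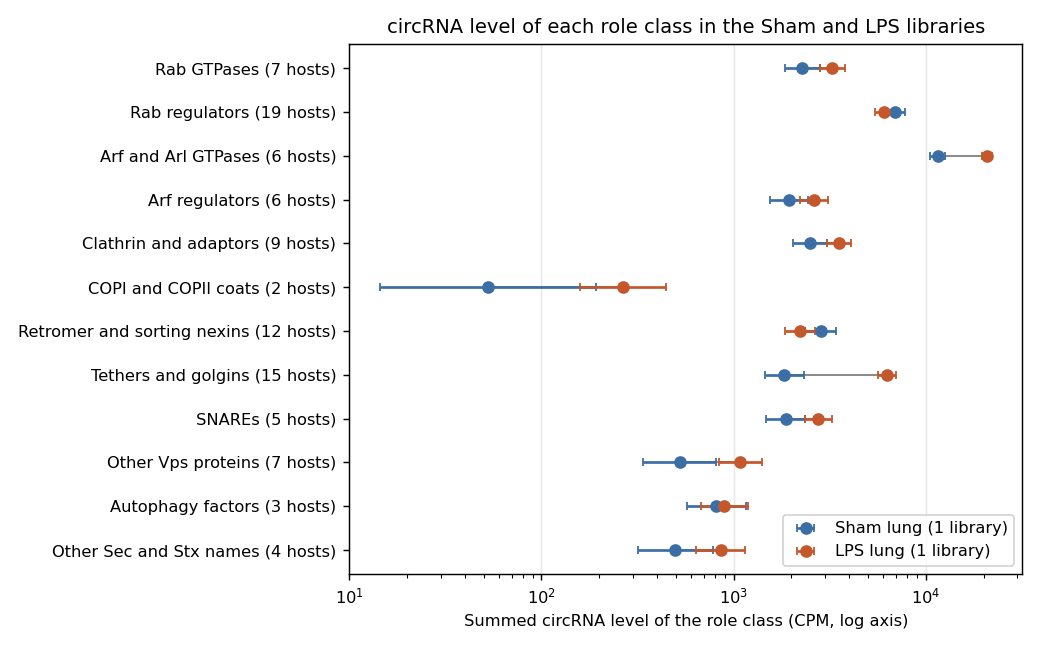
Summed circRNA level (CPM, log axis) of each role class in the 1 Sham and the 1 LPS library, with 95% Wilson intervals. Arf and Arl GTPases lie highest, at 11545 CPM in Sham and 20817 CPM in LPS, and the classes of Rab regulators and of retromer and sorting nexins lie slightly higher in Sham.

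Clathrin and its adaptors had 20 circles from 9 hosts, with 95 reads in Sham and 186 in LPS, a ratio of 1.42 (1.10 to 1.84). The gain lay in Clta, the clathrin light chain A, whose main circle on chromosome 5 (59497085 to 59498228) had 44 reads or 1154 CPM in Sham and 130 reads or 2476 CPM in LPS, 2.14-fold higher (1.51 to 3.09), with a log2 value of 1.09 on total reads and of 0.65 on the scale of abundant shared circRNAs. A second Clta circle with the same start had 3 reads in Sham only, and the sum of both had a ratio of 2.01 (1.43 to 2.87) and stayed just under the call once 0.5 reads were added. Without Clta, the other 8 hosts held 48 and 56 reads, a ratio of 0.85 (0.57 to 1.27).

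The adaptor subunits were divided. AP-3, which sorts cargo to lysosomes and to lysosome-related organelles, had 11 circles from Ap3b1, Ap3s1 and Ap3s2, with 27 reads in Sham and 34 in LPS, a ratio of 0.91 (0.54 to 1.58), of which 5 circles were higher and 5 lower. Ap3b1 alone had 7 circles, the most of any member, and they shared their ends in several combinations on chromosome 2 between 24055343 and 24083767. The most abundant of them (24067948 to 24083767) had 11 reads in Sham and 7 in LPS, and the Ap3b1 sum gave 21 and 17 reads, 1.70-fold lower (0.86 to 3.44), within counting error. The Ap3s1 circle on chromosome 18 (40755216 to 40758689) had 15 reads in LPS only, 2.30-fold over the Sham limit. AP-2 and AP-1, the adaptors of the plasma membrane and of the trans-Golgi, had 3 circles from Ap2a1, Ap2a2 and Ap1b1, each with 3 or 4 reads in Sham and the fill-in in LPS. That of Ap2a1 lay within what the fill-in allows in LPS, and the intervals of Ap2a2 and Ap1b1 (40.8 to 270 CPM) spanned that limit. Picalm, an endocytic adaptor, had 4 and 5 reads on its pair of circles, all in LPS, and Ap1ar had 10 and 13 reads in sum.

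The coats between endoplasmic reticulum and Golgi had 2 circles. That of Sec24d, a COPII cargo subunit, had 12 reads in LPS only (chromosome 2, 227528584 to 227529462), and that of Sec23a had 2 reads in each library. Neither Copa nor Copb gave a row among those analysed here.

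Retromer and sorting nexins, which return receptors from endosomes, had 22 circles from 12 hosts, with 2834 CPM in Sham and 2209 CPM in LPS, a ratio of 0.78 (0.59 to 1.02). Of the hosts, 3 were higher, 4 lower and 5 neither. Snx27, which recycles receptors together with retromer, was the most abundant. Its 4 circles on chromosome 2 summed to 1181 CPM (883 to 1579) in Sham against 571 CPM (400 to 816) in LPS, 2.07-fold lower (1.27 to 3.40), and the shortest of them (195795435 to 195795666, 231 bases) had 34 and 25 reads, 1.87-fold lower (1.09 to 3.28), short of 2-fold. Vps26a, a core retromer subunit, had 2 circles with 7 and 3 reads, all in Sham. The sorting nexin Snx12 on chromosome X (71119280 to 71121063) had 8 reads in Sham only, 2.32-fold over the LPS limit. The leukocyte sorting nexin Snx20 had 13 reads in LPS only and Snx13 had 12 and 33 reads over 4 circles, just under 2-fold. Leaving out Snx27, the class held 63 and 86 reads, a ratio of 0.99 (0.71 to 1.39).

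Tethers and golgins had the highest ratio among the classes with over 100 reads, 3.42 (2.64 to 4.49), and a single circle set it. Trappc6b, a subunit of the TRAPP tethering complexes, gave a circle on chromosome 6 (80149001 to 80150524) with 21 reads or 551 CPM (360 to 842) in Sham against 284 reads or 5409 CPM (4817 to 6074) in LPS, 9.82-fold higher (6.30 to 16.1). Its rank among all circRNAs went from 300 to 15. Without Trappc6b, the other 14 tether hosts held 49 reads in Sham and 46 in LPS, 1.47-fold lower (0.96 to 2.24). The circles of other TRAPP subunits were lower or had few reads. Trappc8, on chromosome 18, had 682 CPM (466 to 999) in Sham against 229 CPM (131 to 399) in LPS, 2.98-fold lower (1.45 to 6.49) over its pair of circles. Trappc3 had 3 reads in Sham only, and Trappc9 had 4 and 5 reads in sum. In Trappc8, the circle from 15358804 to 15359840 had 20 and 12 reads, 2.30-fold lower (1.07 to 5.15) but under 2-fold with the shared circRNAs set to a median ratio of 1 (log2 of -0.71), and the other had 6 reads in Sham only.

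The exocyst, which tethers vesicles at the plasma membrane, had 1 circle from each of Exoc1, Exoc2, Exoc4 and Exoc6, with 2 reads in Sham and 13 in LPS, a ratio of 4.72 (1.07 to 43.1), and the last 3 were listed in LPS only with 2 to 5 reads. The Golgi-localised GARP subunits Vps53 and Vps54 had 3 and 12 reads over 4 circles, a ratio of 2.90 (0.78 to 16.0), within counting error. Golga1, Golga4 and Golga5, coiled-coil tethers of the Golgi, had 7 and 4 reads, and Vps8 and Vps11, of the endosomal CORVET and HOPS tethers, had 2 reads each in Sham only. At these read numbers a difference was not detectable for most tether circles.

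SNAREs had 10 circles from 5 hosts and a ratio of 1.48 (1.11 to 2.00), with 71 reads in Sham and 145 in LPS. Vti1a, a SNARE of the Golgi and endosomes, had 4 circles on chromosome 1 with opposite behaviour. The circle from 276373381 to 276384367 had 24 and 60 reads, a ratio of 1.81, and that from 276486933 to 276487666 had 19 and 8 reads, 3.27-fold lower (1.37 to 8.64), so the Vti1a sum had a ratio of 1.25 (0.86 to 1.83), within counting error. The remaining pair of Vti1a circles has one start and ends 11 bases apart, with 3 reads in Sham and 11 in LPS between them, and whether they are 1 junction was not tested. Stx8, a SNARE of late endosomes, was higher, with 472 CPM (299 to 746) in Sham against 1181 CPM (921 to 1513) in LPS, a ratio of 2.50 (1.46 to 4.49). One Stx8 circle on chromosome 10 (54552998 to 54564596) had 18 and 47 reads. The other (54564504 to 54574288) had 15 reads in LPS only, 2.30-fold over the Sham limit, in a row that names 15 genes. Without that row the Stx8 log2 value was 0.90, under 2-fold, so its place among the higher hosts rested on reads that cannot be assigned to one gene. Stx4, a SNARE of the plasma membrane, and Snap47 had 4 and 3 reads in Sham only, and Stx6 had 2 reads on each of 2 circles in LPS only.

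The other Vps proteins had 8 circles from 7 hosts, with 3 hosts higher and 4 lower. Vps13c, a lipid transfer protein of endosomes and lysosomes, had 210 CPM (106 to 414) in Sham against 743 CPM (543 to 1015) in LPS, 3.54-fold higher (1.63 to 8.77). Vps36, of the ESCRT-II complex, had 2 reads in Sham and 16 in LPS, a ratio of 5.81 (1.37 to 52.1). The other 5 hosts (Vps13a, Vps13b, Vps13d, Vps37a and Vps4a) had 2 or 3 reads in 1 library each, 4 of them in Sham.

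Autophagy factors were few, with 3 circles. Atg14, a subunit of the autophagy lipid kinase complex, had 23 reads or 603 CPM in Sham and 42 reads or 800 CPM in LPS, a ratio of 1.33 (0.78 to 2.31), within counting error. Atg16l2 had 6 reads in Sham only and Atg5 had 2 and 5 reads. Some hosts that the names bring in act elsewhere in the secretory pathway: Sec63 and Sec62 serve protein entry into the endoplasmic reticulum and Sec11a is a signal peptidase subunit. Sec63 was higher, from 262 CPM (143 to 483) to 743 CPM (543 to 1015), a ratio of 2.83 (1.39 to 6.36), and Sec62, Sec11a and Sec14l1 had 3, 5 and 7 reads over both libraries.

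**Figure D3:**
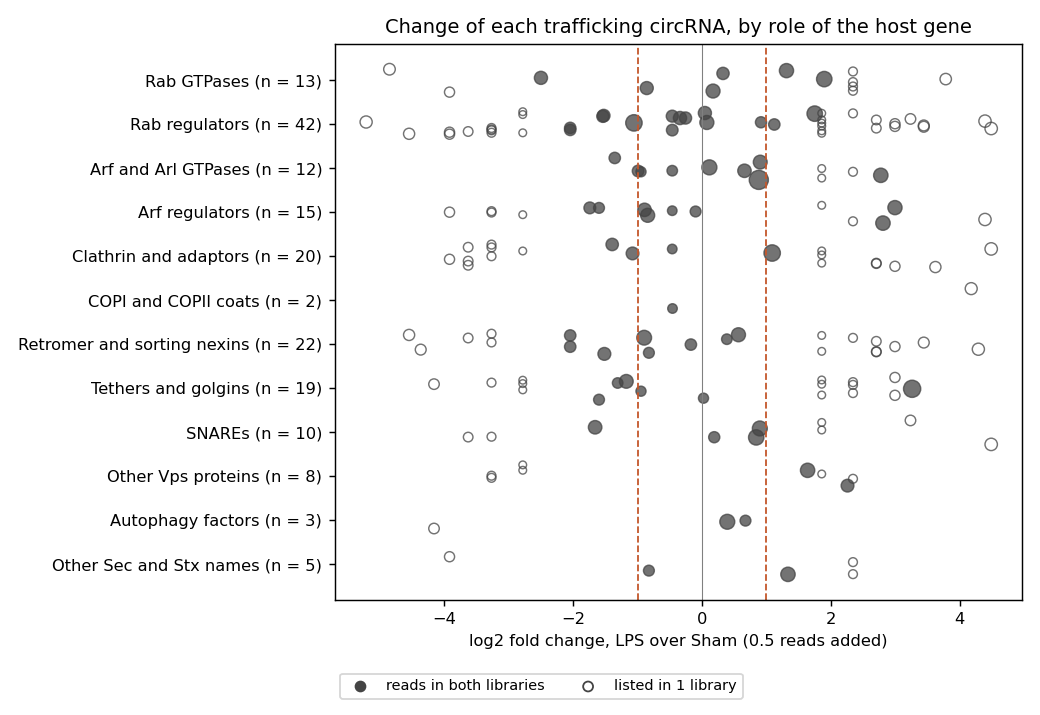
Log2 fold change of each of the 171 trafficking circRNAs (LPS over Sham, 0.5 reads added) by the role of its host, with filled points for reads in both libraries, open points for circles listed in 1 library, point size rising with reads, and dashed lines at 2-fold. Open points lie outside the dashed lines in every class, as the rule makes them, and filled points lie on both sides of 0 in most classes.

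Members listed in 1 library need the limit of the other library beside them. Of the 61 circles listed in LPS only, 12 (19.7%, background 22.2%) lay above what the fill-in allows in Sham, and of the 44 listed in Sham only, 19 (43.2%, background 40.5%) lay above what it allows in LPS. The others lay within what the fill-in allows and could not be told from equal levels at this depth. Passing the limit does not settle a difference either, since the counting error of the listed reads is left out. Intervals of some that passed span the limit, such as Ap2a2 (105 CPM, 40.8 to 270) in Sham and Snx2 (133 CPM, 64.6 to 275) in LPS. The most abundant on the LPS side were those of Stx8, Rabgap1l and Ap3s1 with 15 reads, followed by Dennd1b and Arfgef2 with 14, and on the Sham side those of Tbc1d22b with 13 reads and Rab1a with 10.

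The architecture of the circles was described next. Junction ends lay at a median of 5098 bases apart (interquartile range 2000 to 11865), against 4393 bases for all circRNAs, and between 149 bases in Vps26a and 103394 bases in Vti1a. Of the members, 8 (4.68%) spanned at most 500 bases, against 12.5% of all circRNAs, and 14 (8.19%) spanned at least 25000, against 11.1%. Members came from 20 chromosomes, with 21 circles on chromosome 1 and 20 each on chromosomes 2 and 7. All 95 host symbols matched a RefSeq gene of the GRCr8 assembly, 94 of them on the same chromosome. Arl13b lay on chromosome 7 in the rn6 coordinates and on chromosome 11 in GRCr8. In 14 rows more than 1 gene was named, and reads there cannot be assigned to one host.

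Of the 95 hosts, 51 (53.7%, against 61.8% of all host genes) had a single circle and 44 had 2 or more, with 7 in Ap3b1 and 5 each in Asap2 and Dennd5b. Among those 44, 18 (40.9%, against 45.5% of all hosts with 2 or more) had at least 1 circle higher and at least 1 lower in LPS. Circles of one host often shared an end, which was the case for 77 members (45.0%, against 37.5% of circRNAs with a host). These gave 57 pairs in 30 hosts, of which 18 pairs (31.6%, background 24.9%) had one circle higher and the other lower and 14 (24.6%, background 26.5%) had both changed the same way. The opposite pairs came from Ap3b1 (6 pairs), Asap2 (3), Dennd1b (2), and 1 each from Ap1ar, Ap3s2, Clta, Dennd1a, Dennd5b, Rab21 and Tbc1d1. All of them included a circle with under 10 reads, since the 5 pairs with at least 10 reads in each circle held 0 opposite pairs (background 8.15%) and 0 pairs changed the same way (background 16.7%), too few pairs to set against the background. Circles of a host share its transcript and are not independent of each other.

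**Figure D4:**
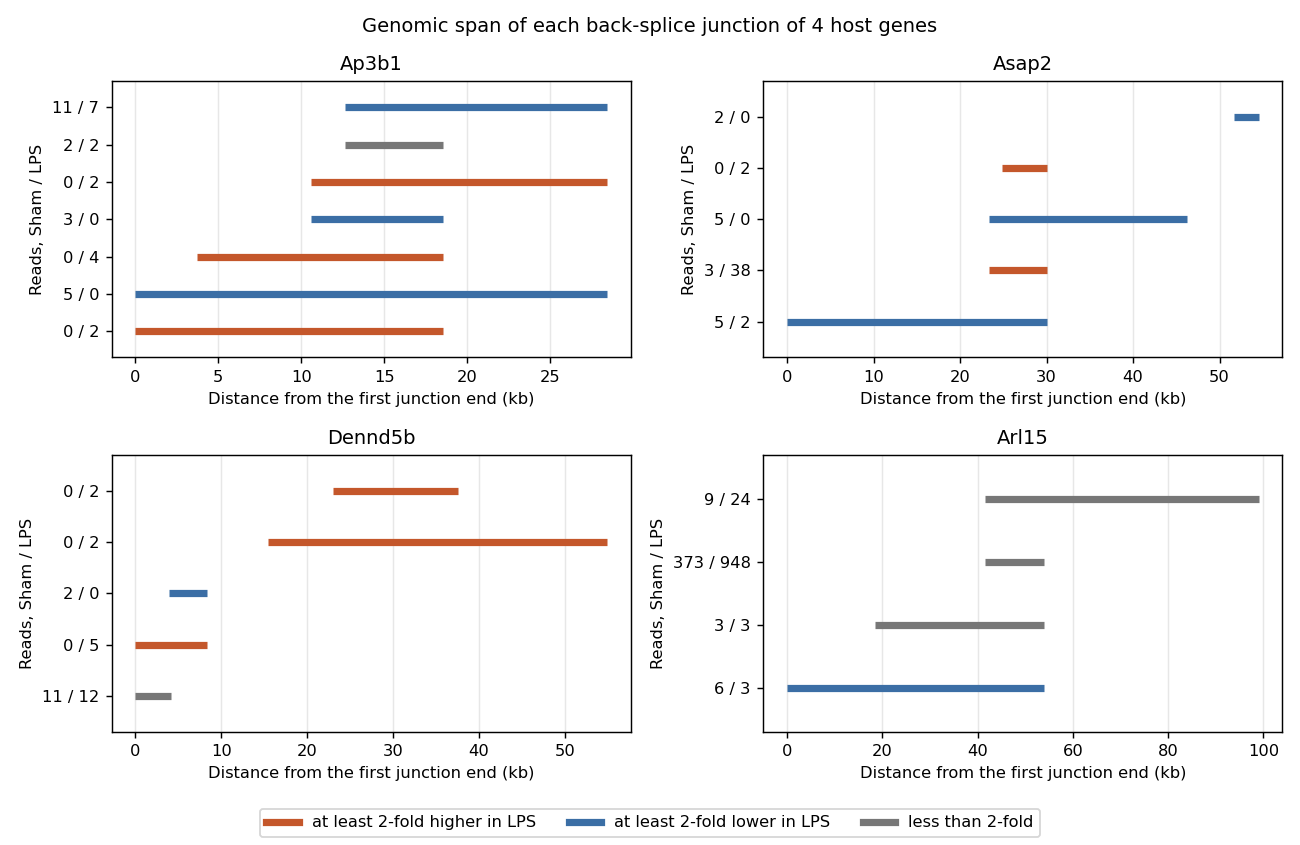
Genomic span of each back-splice junction of Ap3b1, Asap2, Dennd5b and Arl15, as bars to scale over the distance in kb from the first junction end, with the reads in Sham and LPS at the left and the colour showing at least 2-fold higher, lower or neither in LPS. Within a host, circles that share an end carry unlike reads, as in Asap2 (3 and 38 beside 5 and 0), while in Arl15 1 circle holds 373 and 948 reads and the others 3 to 24.

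Trafficking genes outside these name families were counted for comparison. Of a list of 140 such genes (such as Vamp2, Nsf and Eea1, which act in fusion and tethering), 43 had circRNAs, with 84 circles, and 7 hosts were higher (16.3%), 17 lower (39.5%) and 19 neither, beside the background of 30.6% and 37.4%. The most abundant were Fcho2, an early endocytic adaptor, with 8055 CPM in Sham and 10037 CPM in LPS, Uvrag, of the Beclin complex, with 8475 and 7314 CPM, and Agap1, an Arf GTPase-activating protein, with 4907 and 3790 CPM. The sum of this list held 1221 reads or 3.20% of the library in Sham and 1550 reads or 2.95% in LPS, a ratio of 0.92 (0.85 to 0.99). On total junction reads its share was therefore lower in LPS while that of the name families was higher. Setting all shared circRNAs to a median ratio of 1 raises every log2 value by 0.46. That is more than this ratio lies below 1, so the direction of this list depended on the scale.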

How the data were processed

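CircRNA was sequenced from rat lung tissue, 1 Sham and 1 LPS library, and groups and table columns were taken from the labels and column names. The authors deposited 1 table with junction positions, names of host genes and 2 columns of values headed TPM. The values behave as CPM that the authors made from junction reads, without a length term, and 0 or 1 read was set to 0.001. The submitters' processing notes name CASAVA 1.8, BWA and build rn6. The circRNA caller and the pooling of rats are not given in the sources used here. The labels describe ribosomal RNA removal, RNase R and a stranded kit, whereas the study's methods describe another library kit.

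One read was found from the column steps as 26.2 CPM in Sham and 19.0 CPM in LPS, and 100% of listed values were whole reads within 0.01 read. These are inferred depths of 38112 and 52505 reads. A minimum of 2 reads was listed. Host names were matched by pattern, circles were summed per host with the fill-in as 0, and each host was placed in a role class by its name. Log2 fold changes used 0.5 reads added and a call needed at least 2-fold. Wilson and exact binomial intervals (95%, SciPy 1.17.1, Python 3.11.15) cover counting error only. With 1 library per group no test was run and no p-value is given. The call rule was tried on simulated data with 4-fold changes in circRNAs with at least 20 reads. Changes of 2-fold, lower read numbers and false calls were not tested. The members, the role classes and the lists were chosen with earlier results of these data known.

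Genes named with full values were the 12 hosts with the most reads, the 6 highest and 6 lowest by fold among hosts with at least 20 reads, hosts with at least 5 circles, Arl1 and Tbc1d8, and by the same kind of rule the circles with the most reads or the largest fold and the first 4 listed in 1 library on each side. Other hosts were named to account for the whole set, after their values were seen, as were the name families within classes. Alternatives were a pseudocount of 1 read, the fill-in as 1 read, 4-fold, at least 10 reads, 2 median-of-ratios scales, rows with 1 host name, and the sum without its most abundant circle. Class sums without their leading host were added after seeing the data. Junction sequences and exon or intron positions were not used here, as no rn6 genome was used.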

Additional observations from a re-analysis of the deposited data

How the results depend on the processing

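Counts moved with the treatment of low reads. Of 171 circRNAs, the 73 higher in LPS became 39 with the fill-in as 1 read and 46 at 4-fold. With at least 10 reads 51 circRNAs were left, of which 18 were higher, and the 62 lower ones became 12 of these 51. Of 95 hosts, the 31 higher ones became 18 at 4-fold. With at least 10 reads 45 hosts were left, of which 14 were higher, and the 29 lower hosts became 8 of these 45. Chosen after seeing the data, the fill-in as 1 read together with at least 10 reads gave 18 higher and 12 lower of 51 circRNAs. It gave 15 higher and 8 lower of 45 hosts. Reads in both libraries, also chosen then, gave 12 and 18 of 66 circRNAs and 11 and 6 of 52 hosts. Fewer circRNAs enter the counts with a read minimum or with reads in both libraries, so a smaller count there need not be a smaller share. No background is given for the 39 and 46 circRNAs or for these host counts. All circRNAs listed in 1 library are called by construction in the main setting. The summed log2 ratio of 0.59 was 1.05 on the scale of shared circRNAs, 0.15 on that of the abundant shared ones (50 reads or more), 0.75 with at least 10 reads and 0.45 without the most abundant circle. The median log2 ratio of shared members, -0.40, was 0.063 and -0.84 on these scales, -0.29 with single host names and 0.11 with at least 10 reads, where the cause was not tested. Of 180 values for 45 named hosts and circles under 4 alternatives, 176 kept their direction, 6 fell under 2-fold and 11 came to pass it. The 4 that changed direction were the sums of Vti1a (-0.13), Atg14 (-0.05) and Dennd5b (-0.24) on the scale of abundant shared circRNAs, and Dennd5b (-0.01) with the fill-in as 1 read. The other alternatives kept the counts within 1.5 times. Without the leading host, chosen after seeing the data, the summed log2 ratio turned negative for tethers and golgins (-0.55 without Trappc6b), the COPI and COPII coats (-0.46 without Sec24d), autophagy factors (-1.14 without Atg14), other Sec names (-1.05 without Sec63), clathrin and adaptors (-0.24 without Clta) and Rab GTPases (-0.052 without Rab6a), and positive for Rab regulators (0.13) and the DENN family (0.080) without Dennd1b. The TBC family, which without Tbc1d8 held fewer reads in LPS than in Sham, was not among these sums. No paired analysis was possible because only 1 library represents each group, and for the same reason no replicate could be left out.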
